A study of Mus musculus with 10 samples.

Results

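The genes described here are 9 transcription factors that pattern the ventral midbrain and its floor plate: Foxa1, Foxa2, Lmx1a, Lmx1b, En1, En2, Otx2, Nr4a2 and Pitx3. They were chosen by name: every probe of the array that was not a control and whose gene name equals one of these symbols was taken. This gave 13 probes for the 9 genes, out of 55681 probes for 35042 genes and unnamed transcripts on the array. Of the 9 genes, 6 passed the filter on dim signals, which asks for 2 or more arrays with a probe well above background, and were tested among 32209 genes. The other members, Foxa1, Lmx1a and En1, were not tested.

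The floor plate is the ventral midline of the neural tube, and in the midbrain it gives rise to dopaminergic neurons. Sonic hedgehog and Wnt signals switch on the forkhead factors Foxa1 and Foxa2 and the LIM homeodomain factors Lmx1a and Lmx1b there, while Otx2, En1 and En2 set the midbrain and midbrain-hindbrain identity of the territory. Nr4a2 and Pitx3 act later, in young dopaminergic neurons, where they switch on genes of dopamine synthesis and transport and are needed for the survival of these cells.

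The study sorted grafted haematopoietic cells from the brains of mice treated with MPTP, a toxin of dopaminergic neurons. Lineage-negative haematopoietic stem and progenitor cells (HSPCs) from bone marrow were placed on one side of the midbrain, over the substantia nigra pars compacta (SNpc), 3 days after the last dose of MPTP. Cells were dissociated 1 week later and sorted into cells positive for both red and yellow fluorescence (RFP+YFP+, fused with a recipient cell and called hybrids) and cells with red fluorescence only (RFP+, called unfused). RNA of 2 mice was pooled for each replicate and amplified by a whole-transcriptome kit, and 500 ng of double-stranded cDNA received the dye Cy3 before hybridisation to a 1-colour array.

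The 5 groups hold 2 arrays each, and every recipient had received MPTP. FoxA2-Cre hybrids came from HSPCsR26Y, which carry a Cre-dependent YFP reporter, placed in FoxA2-Cre recipients (spelled Fox2A-Cre in some labels), so that YFP marks fusion with a recipient cell that makes Cre. FoxA2-Cre unfused cells were the red-only cells of the same recipient type. R26Y hybrids came from HSPCsCre/RFP in R26Y recipients, where fusion with any recipient cell can switch on YFP, and GFAP-Cre hybrids came from HSPCsR26Y in GFAP-Cre recipients. The red-only cells of R26Y and GFAP-Cre recipients were pooled into a single group, the pooled unfused cells. In Cre recipients, red-only cells can include graft cells fused with a recipient cell that makes no Cre. The FoxA2-Cre arrays lie on a slide of their own and the other 6 arrays on another, so recipient type and slide cannot be told apart, and hybrids are set against unfused cells within a slide only. Both hybrid arrays of FoxA2-Cre recipients lie in the first row of their slide and both unfused arrays in the other, so row and cell type cannot be told apart there either. With 2 pools a group, p-values and standard errors rest on the spread between pools, estimated for each gene over all 5 groups together. The spread of the FoxA2-Cre arrays thus also enters the standard errors of comparisons on the other slide.

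The arrays differed in brightness. The share of spots well above background was 34.6% and 19.8% on the FoxA2-Cre hybrid arrays and 49.2% and 34.8% on the FoxA2-Cre unfused arrays, against 64.3% to 86.7% on the 6 arrays of the other slide. No spot was saturated. Spearman's rho between the replicates of a group, across genes, was 0.67 in FoxA2-Cre hybrids, 0.72 in FoxA2-Cre unfused cells, 0.68 in R26Y hybrids, 0.90 in GFAP-Cre hybrids and 0.95 in pooled unfused cells. Genes are not independent replicates, and these coefficients describe the arrays.

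Each member is read by 60-base probes, of which 3 are printed here because they carry the comparisons of Lmx1b and Nr4a2: each has at least 1 reading frame without a stop codon. The array files place all 3 on the minus strand of mouse build mm9, and no base is put in capitals because the whole probe is the measured target. Probe A_55_P2146295 of Lmx1b lies at chr2:33495011-33495070, probe A_55_P2146297 of Lmx1b at chr2:33420253-33420312, and probe A_52_P494622 of Nr4a2 at chr2:56960699-56960758.
Lmx1b A_55_P2146295: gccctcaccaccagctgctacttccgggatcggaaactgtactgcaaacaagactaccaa
Lmx1b A_55_P2146297: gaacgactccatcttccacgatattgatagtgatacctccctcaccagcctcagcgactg
Nr4a2 A_52_P494622: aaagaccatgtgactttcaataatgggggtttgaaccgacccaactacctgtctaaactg
By the array files, the Lmx1b probes start at bases 195 and 962 of the transcript and the Nr4a2 probe at base 2050. The GC content of the 13 probes ran between 35.0% and 53.3%, with a median of 43.3% over all probes. No member probe shares a run of 20 bases with a probe of another gene. Because both cDNA strands were labelled, sense and antisense transcripts cannot be told apart, and in RefSeq (GRCm38.p6) Foxa1 overlaps Ttc6, Lmx1b overlaps Gm39790 and C130021I20Rik, Nr4a2 overlaps LOC105244150 and Pitx3 overlaps Elovl3.

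No member was called higher in FoxA2-Cre hybrids than in FoxA2-Cre unfused cells, and fewer members were detected in the hybrids. Of the 9 members, 5 and 3 were well above background on the FoxA2-Cre hybrid arrays, against 6 and 5 on the FoxA2-Cre unfused arrays. On the other slide the count was 6 and 6 for R26Y hybrids, 6 and 6 for GFAP-Cre hybrids and 6 and 7 for pooled unfused cells. The count followed the brightness of the array: 43.7% and 27.2% of all genes were well above background on the FoxA2-Cre hybrid arrays and 58.4% and 44.0% on the FoxA2-Cre unfused arrays, against 71.6% to 89.7% on the other slide. Lmx1b, En2 and Otx2 were detected on all 10 arrays by at least 1 probe, Nr4a2 on 9, Foxa2 and Pitx3 on 8 and Lmx1a on 1. Foxa1 and En1 were detected on none. These are sorted bulk samples, so fewer cells with a transcript and less RNA per cell cannot be told apart.

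**Figure D1:**
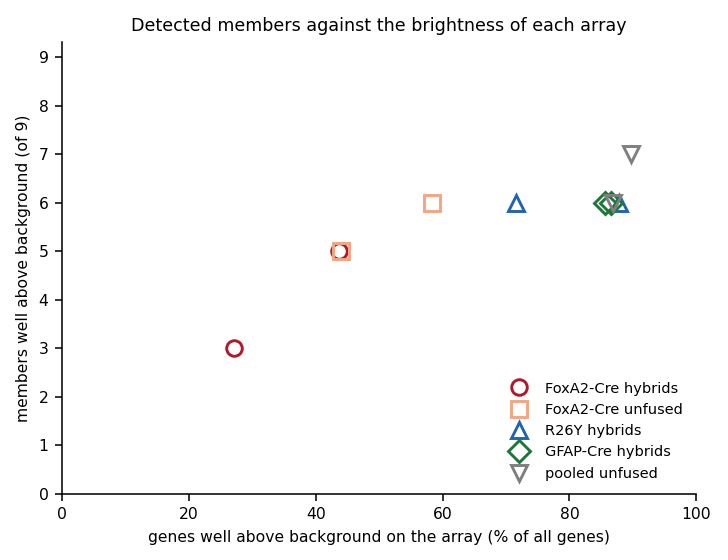
Members well above background (y axis, of 9) against the percentage of all genes well above background on the same array (x axis), 1 point per array, in 5 groups of 2 arrays. The FoxA2-Cre hybrid arrays hold 5 and 3 detected members at 43.7% and 27.2% of all genes, and the unfused FoxA2-Cre array at 44.0% also holds 5.

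Foxa2, the pioneer factor of the floor plate and the gene whose name the FoxA2-Cre line carries, was not well above background on either FoxA2-Cre hybrid array by either of its probes. Probe A_55_P2134236 (chr2:147868669-147868728, minus strand), which represents the gene in the tests, had processed signals of 3.75 and 16.1 in FoxA2-Cre hybrids, against 50.03 and 29.3 in FoxA2-Cre unfused cells, where both arrays were well above background. Both hybrid signals were thus below both unfused signals before scaling. After each array was divided by its own brightness (log2 of the signal minus the array's 75th percentile), replicate 2 of the hybrids lay above both unfused arrays and the groups overlapped. The level on that scale was -5.09 ± 2.32 in FoxA2-Cre hybrids and -3.82 ± 0.14 in FoxA2-Cre unfused cells (SD, n = 2 each), a log2 difference of -1.27 ± 1.17 (SE) with an adjusted p of 0.738 in limma. Without hybrid replicate 1 that difference was 0.36 and with normexp background correction 0.33, so the scaled values give no settled direction and no fold is given. A pattern of detection on both unfused arrays and neither hybrid array was shared by 5.84% of all genes, against 0.158% for the opposite pattern.

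On the other slide the same Foxa2 probe was well above background on all 6 arrays. It read 88.8 and 119 in R26Y hybrids, 189 and 59.99 in GFAP-Cre hybrids and 76.5 and 214 in pooled unfused cells. The 3 groups overlapped, with log2 differences of 0.00 ± 1.17 (SE) for R26Y hybrids and -0.23 ± 1.17 for GFAP-Cre hybrids over pooled unfused cells, neither past the threshold.

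The other Foxa2 probe, A_55_P2067533 (chr2:147868614-147868673), overlaps the first by 5 bases yet gave a different pattern. It read 3.20 and 3.41 in R26Y hybrids, where it was not well above background, against 25.2 and 36.1 in pooled unfused cells, where it was. In GFAP-Cre hybrids it read 40.99 and 51.98, both well above background, against the 3.20 and 3.41 of R26Y hybrids. It was at least 1.86-fold lower in R26Y hybrids than in pooled unfused cells (log2 difference -2.87 ± 0.71 SE, adjusted p over all probes 0.999, limma). It was at least 2.90-fold higher in GFAP-Cre hybrids than in R26Y hybrids (log2 difference 3.52 ± 0.71 SE, adjusted p over all probes 0.999, limma). These bounds set the mean of the brighter group against the lowest signal that counts as well above background on each dim array, or the dim probe's own signal where higher. They leave out the spread between arrays. That lowest signal is not a sharp limit, as some signals above it were not flagged as well above background. The arrays of these groups did not overlap on this probe, as was so for 19.5% of all genes (R26Y hybrids lower than pooled unfused cells) and 20.2% (GFAP-Cre hybrids higher than R26Y hybrids). The matching patterns of detection, on both arrays of one group and neither of the other, were found in 1.36% and 1.12% of all genes. Neither difference passed the threshold after adjustment, although both had an unadjusted p under 0.05, the only 2 such differences among the member probes in the comparisons made. In FoxA2-Cre hybrids and FoxA2-Cre unfused cells it was at background on all 4 arrays, with signals of 4.503 and 4.64 in hybrids, against 4.13 and 6.14 in unfused cells. No fold is given where both groups are at background.

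Foxa1, the close relative that shares much of the Foxa2 role in the floor plate, was at background everywhere. Its probe A_55_P2053933 (chr12:58641764-58641823) read 3.51 and 3.92 in FoxA2-Cre hybrids, against 17.2 and 4.28 in FoxA2-Cre unfused cells, and 2.92 to 7.90 on the 6 arrays of the other slide. None of the 10 values was well above background.

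Lmx1b, which acts in the isthmus, in dopaminergic progenitors and in serotonergic neurons, was detected in every group. Probe A_55_P2146297, which represents the gene, read 324 and 36.3 in FoxA2-Cre hybrids, against 112 and 112 in FoxA2-Cre unfused cells. The hybrid arrays thus lay on either side of the unfused arrays. The scaled log2 level was -1.29 ± 1.40 in FoxA2-Cre hybrids and -2.27 ± 0.69 in FoxA2-Cre unfused cells (SD, n = 2 each), a difference of 0.98 ± 0.75 (SE, adjusted p = 0.705, limma) with a 95% interval of -0.75 to 2.71, and without hybrid replicate 1 it was -0.0070. The other Lmx1b probe, A_55_P2146295, read 83.7 and 17.7 in FoxA2-Cre hybrids, against 201 and 66.9 in FoxA2-Cre unfused cells. Its difference had the other sign, -0.56 ± 0.57 (adjusted p over probes 0.773).

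On the other slide both Lmx1b probes were well above background on all arrays. Probe A_55_P2146297 read 768 and 306 in R26Y hybrids, 718 and 1066 in GFAP-Cre hybrids and 656 and 1003 in pooled unfused cells. Probe A_55_P2146295 read 311 and 235 in R26Y hybrids, 260.2 and 435 in GFAP-Cre hybrids and 291 and 385 in pooled unfused cells. After scaling, the 6 values of the second probe lay close together, with group levels of -2.66 ± 0.10 in R26Y hybrids, -2.63 ± 0.04 in GFAP-Cre hybrids and -2.67 ± 0.06 in pooled unfused cells. Its difference over pooled unfused cells was 0.01 ± 0.57 (SE) in R26Y hybrids, with a 95% interval of -1.31 to 1.33, and 0.04 ± 0.57 in GFAP-Cre hybrids, with an interval of -1.28 to 1.36.

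Lmx1a, the partner of Lmx1b that drives the dopaminergic programme in the floor plate, was well above background on 1 of the 10 arrays only, pooled unfused replicate 2, with a signal of 22.0. Its probe A_55_P2146314 (chr1:169778804-169778863) read 4.70 and 3.98 in FoxA2-Cre hybrids, against 2.49 and 4.21 in FoxA2-Cre unfused cells. The R26Y hybrids read 3.21 and 3.09, the GFAP-Cre hybrids 20.2 and 4.94, and the other pooled unfused array 4.95. Lmx1a was thus not detected on any hybrid array.

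En2 is an engrailed homeodomain factor of the midbrain-hindbrain boundary and of dopaminergic neurons. Its probe A_51_P397876 (chr5:28498468-28498528, plus strand) is printed in 10 spots on each array, all of them well above background on every array, which makes it the best measured member. It read 84.8 and 37.0 in FoxA2-Cre hybrids, against 112 and 73.8 in FoxA2-Cre unfused cells. The SD of the log2 signal among its 10 spots was between 0.04 and 0.27 across the arrays. Scaled, the level was -2.24 ± 0.01 in FoxA2-Cre hybrids and -2.57 ± 0.26 in FoxA2-Cre unfused cells (SD, n = 2 each). The hybrid arrays lay wholly above the unfused arrays on this scale, as for 26.5% of all genes. The difference of 0.33 ± 0.48 (SE, adjusted p = 0.820, limma, 95% interval -0.78 to 1.43) was close to the median of all genes, 0.36.

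Across the other slide En2 read 389 and 229 in R26Y hybrids, 343 and 392 in GFAP-Cre hybrids and 300.4 and 409 in pooled unfused cells. The scaled levels were -2.51 ± 0.16 in R26Y hybrids, -2.50 ± 0.35 in GFAP-Cre hybrids and -2.60 ± 0.03 in pooled unfused cells (SD, n = 2 each), and the groups overlapped. The difference over pooled unfused cells was 0.09 ± 0.48 (SE) in R26Y hybrids and 0.10 ± 0.48 in GFAP-Cre hybrids.

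En1, the paralog of En2 that acts earlier in the midbrain, is read by a probe (A_51_P227386, chr1:122504067-122504126) that also has 10 spots. None of those spots was well above background on any array. The mean signal was 4.79 and 3.89 in FoxA2-Cre hybrids, against 3.17 and 4.49 in FoxA2-Cre unfused cells, and 3.29 to 6.70 on the other slide. Although the raw signals were alike, the scaled level was -5.94 in FoxA2-Cre hybrids and -7.16 in FoxA2-Cre unfused cells, because a signal at background is divided by a smaller number on a dimmer array. The divisors, the 75th percentiles, were 398 and 176 on the FoxA2-Cre hybrid arrays and 754 and 386 on the FoxA2-Cre unfused arrays.

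Otx2, the homeodomain factor that gives fore- and midbrain their identity, had the largest negative difference among the members in FoxA2-Cre hybrids. Probe A_55_P1978571 (chr14:49277855-49277914, minus strand) read 4.57 and 47.3 in FoxA2-Cre hybrids, of which only the second was well above background, against 85.3 and 128 in FoxA2-Cre unfused cells. The scaled level was -4.17 ± 3.22 in FoxA2-Cre hybrids and -2.37 ± 1.10 in FoxA2-Cre unfused cells (SD, n = 2 each). The difference was -1.80 ± 1.33 (SE, adjusted p = 0.697, limma; 95% interval -4.88 to 1.28) and rested on hybrid replicate 1: without that array it was 0.47. The other Otx2 probe, A_55_P2049052 (chr14:49284952-49285011), read 29.7 and 3.82 in FoxA2-Cre hybrids, against 26.3 and 10.3 in FoxA2-Cre unfused cells, and gave 0.40 ± 0.67. The probes thus disagreed on which hybrid array held an Otx2 signal: each found it in the array where the other did not.

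Elsewhere Otx2 was well above background by both probes on all 6 arrays. Probe A_55_P1978571 read 907 and 317 in R26Y hybrids, 704 and 1180 in GFAP-Cre hybrids and 715 and 1113 in pooled unfused cells. The scaled levels were -1.67 ± 0.69 in R26Y hybrids, -1.19 ± 0.04 in GFAP-Cre hybrids and -1.25 ± 0.11 in pooled unfused cells (SD, n = 2 each). No difference between these groups passed the threshold.

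Nr4a2 (also called Nurr1) is an orphan nuclear receptor required for the dopaminergic phenotype and is also switched on by stimuli in immune cells. Probe A_52_P494622, which represents the gene, read 15.9 and 8.04 in FoxA2-Cre hybrids, against 11.5 and 11.7 in FoxA2-Cre unfused cells. Only hybrid replicate 1 was well above background, 1 of 2 hybrid arrays and 0 of 2 unfused arrays. The scaled level was -4.55 ± 0.13 in FoxA2-Cre hybrids and -5.54 ± 0.70 in FoxA2-Cre unfused cells (SD, n = 2 each). The fitted difference was 0.99 ± 1.09 (SE, adjusted p = 0.775, limma). It was 0.15 with the authors' deposited matrix, 3.27 with slide row in the model and 0.50 without FoxA2-Cre unfused replicate 1. The slide-row term is estimated from the hybrids of the other slide alone, so the 3.27 is not a check of row on this slide. No fold is given, because 3 of the 4 arrays were not well above background and the raw signals of the groups overlapped.

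The 3′ probe of Nr4a2, A_55_P1983508 (chr2:56959637-56959696), gave the opposite order. It read 4.23 and 4.20 in FoxA2-Cre hybrids, at background, against 23.5 and 18.4 in FoxA2-Cre unfused cells, both well above background. Its fitted difference was -1.28 ± 0.62 (SE, adjusted p over probes 0.665, limma). The hybrid arrays lay wholly below the unfused arrays, as for 10.6% of all genes. Detection on both unfused arrays and neither hybrid array was found in 5.84% of all genes. No bound above 1 could be given for this probe, because the mean limit of detection of the dim hybrid arrays lies higher than the unfused level after scaling. The limit was -3.47 on hybrid replicate 2 but -5.02 on replicate 1, against an unfused level of -4.70. The data therefore give no common direction for Nr4a2.

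On the other slide Nr4a2 varied more between replicates than between groups. Probe A_52_P494622 read 121 and 18.0 in R26Y hybrids, 40.99 and 335 in GFAP-Cre hybrids and 196 and 69.4 in pooled unfused cells. Probe A_55_P1983508 read 66.7 and 39.8 in R26Y hybrids, 50.1 and 81.5 in GFAP-Cre hybrids and 95.4 and 75.3 in pooled unfused cells. The first probe's difference was -1.002 ± 1.09 (SE) in R26Y hybrids over pooled unfused cells and 1.04 ± 1.09 in GFAP-Cre hybrids over R26Y hybrids, with 95% intervals of -3.54 to 1.53 and -1.50 to 3.58.

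Pitx3, the homeodomain factor on which neurons of the substantia nigra depend, was near the limit of detection on the FoxA2-Cre slide. Its probe A_51_P477614 (chr19:46210179-46210238, minus strand) read 41.8 and 9.49 in FoxA2-Cre hybrids, against 40.4 and 15.4 in FoxA2-Cre unfused cells, and in each group only the first array was well above background. The scaled level was -3.73 ± 0.68 in FoxA2-Cre hybrids and -4.43 ± 0.30 in FoxA2-Cre unfused cells (SD, n = 2 each). The hybrid arrays lay wholly above the unfused arrays after scaling, as for 26.5% of all genes, while the raw signals overlapped. The difference was 0.70 ± 0.56 (SE, adjusted p = 0.712, limma, 95% interval -0.60 to 2.00).

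On the other slide Pitx3 was detected on all 6 arrays and was steady. It read 101 and 117 in R26Y hybrids, 92.5 and 134 in GFAP-Cre hybrids and 103 and 122 in pooled unfused cells. The difference over pooled unfused cells was 0.28 ± 0.56 (SE) in R26Y hybrids, with a 95% interval of -1.02 to 1.58, and 0.02 ± 0.56 in GFAP-Cre hybrids, with an interval of -1.27 to 1.32. The nearest probe of the overlapping gene Elovl3 lies 358 bases from the Pitx3 probe in mm9.

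**Figure D2:**
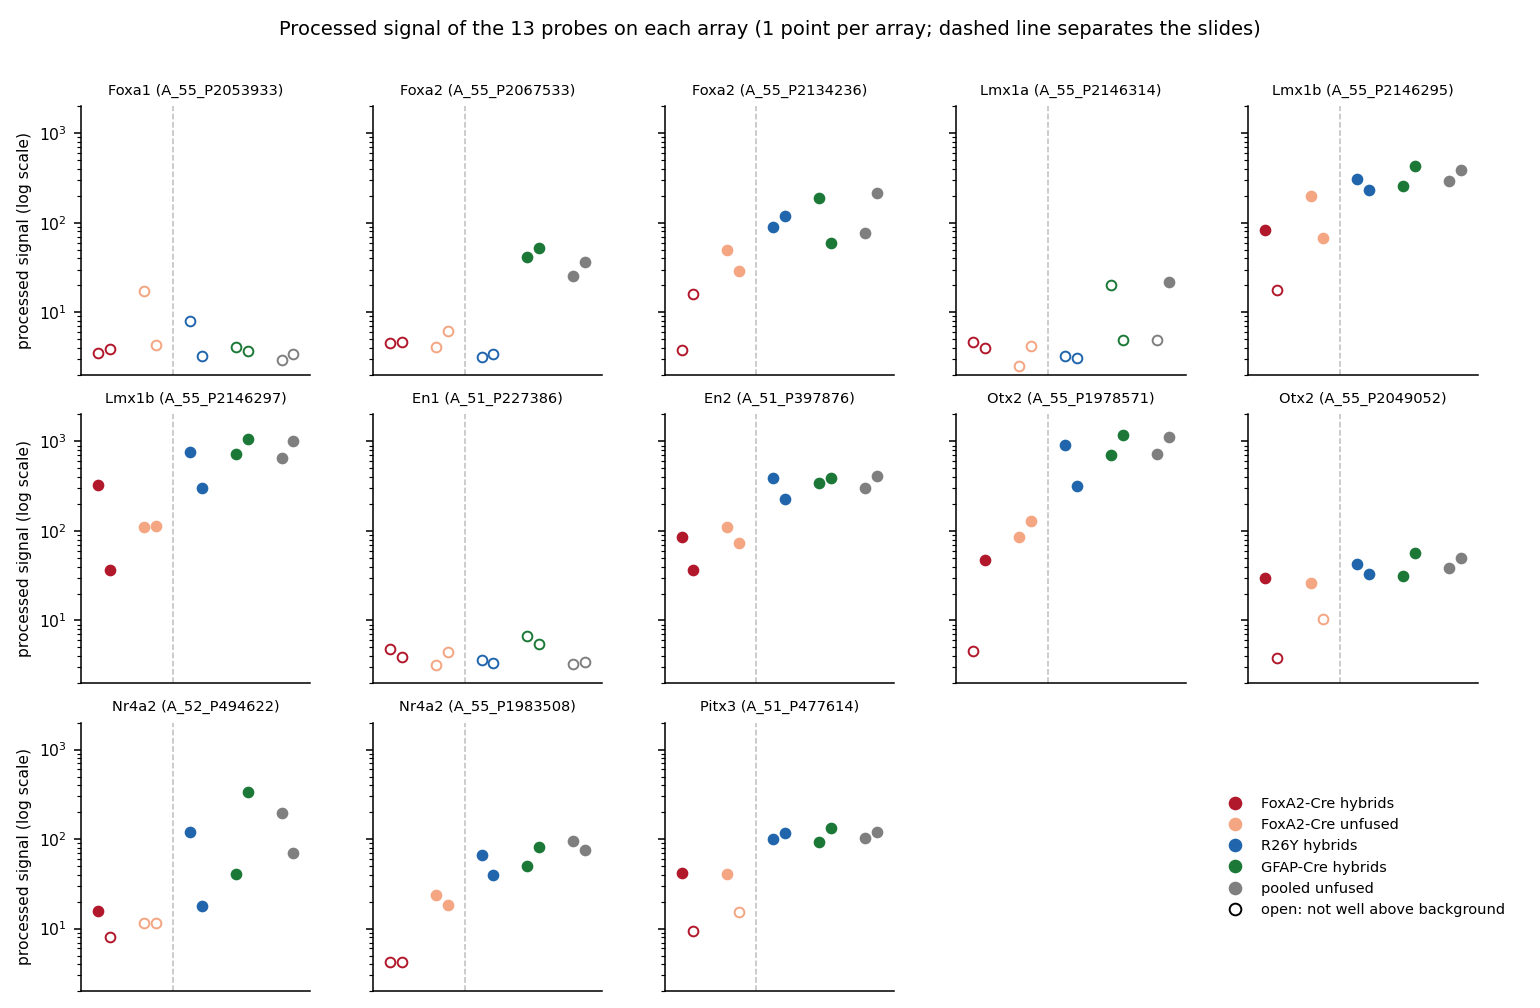
Processed signal (y axis, log scale) of each of the 13 probes on each of the 10 arrays, with 1 panel per probe and 1 point per array. Filled points are well above background, and a dashed line separates the FoxA2-Cre slide from the other. Foxa1 and En1 hold open points only, and Foxa2 probe A_55_P2067533 is filled only in GFAP-Cre hybrids and pooled unfused cells.

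Over the 6 tested members, the comparison of FoxA2-Cre hybrids with FoxA2-Cre unfused cells gave 0 calls at an adjusted p of 0.05 (limma, Benjamini-Hochberg over 32209 genes), where 0.531% of all genes were called. None of the 6 reached an unadjusted p of 0.05 either. Differences ran between -1.80 (Otx2) and 0.99 (Nr4a2), with a median of 0.51 beside a median of 0.36 over all genes, and 4 of 6 were above 0. After scaling, the hybrid arrays lay wholly above the unfused arrays for 3 of 6 members (En2, Nr4a2, Pitx3), against 26.5% of all genes, and wholly below for 0 of 6, against 10.6% of all genes. Of those 3 members, only En2 was well above background on all 4 arrays. By the probes that represent the genes, Nr4a2 was not on 3 of the 4 arrays and Pitx3 not on 2. How far the divisors of the arrays set their scaled order was not tested. Among member probes at background on all 4 arrays, those of En1 and Lmx1a also lay wholly above. The probe of Foxa1 and probe A_55_P2067533 of Foxa2 overlapped. Probe A_55_P1983508 of Nr4a2, which does not represent the gene, lay wholly below.

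The median of all genes in this comparison moved with the scaling, between 0.03 with the authors' deposited matrix and 0.71 with normexp background correction, so the members were also read relative to it. Lmx1b, Nr4a2 and Pitx3 lay above the median of all genes and Foxa2 and Otx2 below it under each of 5 scalings. The main scaling and the percentile over all probes differ by a constant per array, which cancels here, so they are not separate checks. These values are of the probes that represent the genes. The other probes of Lmx1b, Nr4a2 and Otx2 had differences of -0.56, -1.28 and 0.40 with the main scaling. En2 lay above it under 2 of 5 scalings and within 0.52 of it under all 5.

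R26Y hybrids over pooled unfused cells gave 0 calls among the 6 members, with 0% of all genes called (448 of 32209 genes had an unadjusted p under 0.05, and none of the members did). The members' median difference was -0.20 beside -0.26 for all genes. GFAP-Cre hybrids over pooled unfused cells gave 0 calls, again with 0% of all genes called (522 genes and 0 members at an unadjusted p under 0.05), and a median of 0.05 beside 0.03. GFAP-Cre hybrids over R26Y hybrids gave 0 calls with 0% of all genes called (887 genes and 0 members at an unadjusted p under 0.05), and a median of 0.24 beside 0.29. The comparisons on this slide share arrays, so their values are not independent of each other.

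Whether the hybrid effect was larger in FoxA2-Cre recipients was tested as a difference of differences: FoxA2-Cre hybrids over FoxA2-Cre unfused cells, minus the mean of R26Y and GFAP-Cre hybrids over pooled unfused cells. None of the 6 members was called, where 0.0962% of all genes were, and none had an unadjusted p under 0.05. The largest positive value was 1.48 ± 1.45 (SE) for Nr4a2 (adjusted p = 0.842, limma; 95% interval -1.88 to 4.83) and the largest negative value -1.63 ± 1.76 for Otx2 (adjusted p = 0.846). The Nr4a2 value was 0.29 with the authors' deposited matrix and 4.89 with slide row in the model, where the row term comes from the other slide's hybrids alone. It ran between 0.48 (without pooled unfused replicate 1) and 2.47 (without pooled unfused replicate 2) when an array was left out. The Nr4a2 value also rests on FoxA2-Cre unfused arrays where the probe that represents Nr4a2 was not well above background, though its other probe was. Lmx1b gave 1.12 ± 0.99, Pitx3 0.55 ± 0.74, En2 0.24 ± 0.63 and Foxa2 -1.16 ± 1.55. The intervals of all 6 hold 0 and also differences of over 1 on the log2 scale, so differences of that size lie within the error of these arrays.

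**Figure D3:**
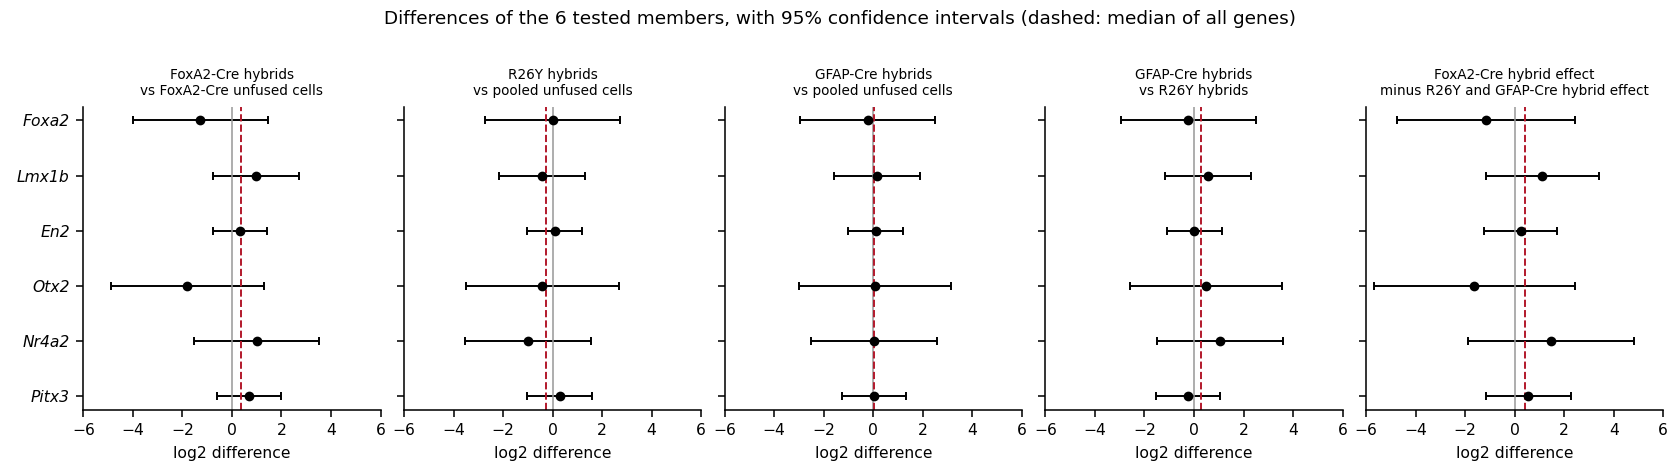
Log2 difference (x axis) of the 6 tested members (rows) in 5 comparisons (panels), with bars for 95% confidence intervals of the limma fit and a dashed line at the median of all genes. Every interval includes 0. The widest intervals are those of Otx2, and the narrowest those of En2.

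Foxa2, Lmx1b, Otx2 and Nr4a2 are each read by a pair of probes. In FoxA2-Cre hybrids over FoxA2-Cre unfused cells the fitted differences of the pair had opposite signs for Lmx1b, Otx2 and Nr4a2, while for Foxa2 the other probe was at background on all 4 arrays and gave no direction to compare. Lmx1b gave 0.98 ± 0.75 and -0.56 ± 0.57 (SE), Otx2 -1.80 ± 1.33 and 0.40 ± 0.67, and Nr4a2 0.99 ± 1.09 and -1.28 ± 0.62. Only probe A_55_P2146297 of Lmx1b was well above background on all 4 arrays among these 6 probes. None of the 10 member probes that passed the filter was called with every probe tested.

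**Figure D4:**
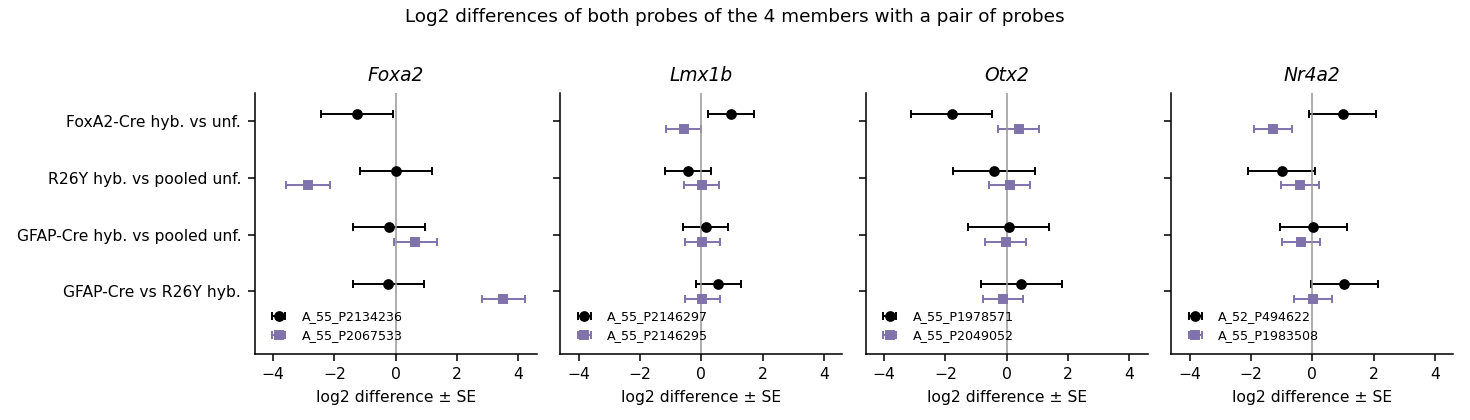
Log2 difference with its standard error (x axis) for both probes of Foxa2, Lmx1b, Otx2 and Nr4a2 (panels) in 4 comparisons (rows). Black circles are the probe that represents the gene and purple squares the other probe. In the top row the probes of Lmx1b, Otx2 and Nr4a2 lie on opposite sides of 0. The other Foxa2 probe has no point there because both groups were at background.

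The pathway around these factors showed no called change in the same comparison. Of 19 genes of the floor plate and dopaminergic progenitor pathway, 17 were tested and 0 were called in either direction in FoxA2-Cre hybrids over FoxA2-Cre unfused cells (limma), with 1 at an unadjusted p under 0.05, a median difference of 0.03 and 9 of 17 above 0. Shh, the ligand that induces the floor plate, was at background on all 4 arrays, with 4.19 and 3.84 in FoxA2-Cre hybrids, against 3.27 and 4.14 in FoxA2-Cre unfused cells. Corin, a surface protease of floor plate cells, was at background on both FoxA2-Cre hybrid arrays, at 3.79 and 5.74, against 25.99 and 9.96 in FoxA2-Cre unfused cells, of which the first was well above background.

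Of 13 dopaminergic target genes of the members, 12 were tested and 0 were called in FoxA2-Cre hybrids over FoxA2-Cre unfused cells (limma). Of the 12, 7 had a difference above 0 and 2 an unadjusted p under 0.05. The median difference was 0.23 beside 0.36 for all genes. The genes named next were lower or at background in the hybrids and do not stand for the whole list. Th, the rate-limiting enzyme of dopamine synthesis, was well above background on all 4 arrays and read 235 and 43.6 in FoxA2-Cre hybrids, against 430.4 and 216 in FoxA2-Cre unfused cells (log2 difference -0.56 ± 0.57 SE, adjusted p = 0.759, limma). Slc6a3, the dopamine transporter, was at background in FoxA2-Cre hybrids, at 4.97 and 4.53, against 22.8 and 4.47 in FoxA2-Cre unfused cells. Slc18a2, the vesicular monoamine transporter, was at background on all 4 arrays. The smallest p of the list was that of Ptpru, a receptor phosphatase, which read 4.94 and 4.82 in FoxA2-Cre hybrids, both at background, against 48.3 and 22.8 in FoxA2-Cre unfused cells, both well above it (adjusted p = 0.431). Vip, a neuropeptide gene, was at background in both groups.

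Of 9 genes of the midbrain-hindbrain boundary, all 9 were tested and 0 were called (limma), with 2 at an unadjusted p under 0.05, as for 2786 of all 32209 genes in this comparison. Of the 9, 6 had a difference above 0, with a median of 0.21 beside 0.36 for all genes. Sp8 and Pax8, named next, do not stand for the whole list. Sp8, a zinc finger factor, read 4.38 and 3.33 in FoxA2-Cre hybrids, at background, against 24.5 and 82.5 in FoxA2-Cre unfused cells (adjusted p = 0.486, limma). Pax8 was at background in both groups. Of 7 close relatives of the members, 3 were tested (Foxa3, Otx1, Nr4a1) and 0 were called. Nr4a1, the immediate early relative of Nr4a2, read 115 and 3.39 in FoxA2-Cre hybrids, against 533 and 76.1 in FoxA2-Cre unfused cells (log2 difference -2.33 ± 1.32 SE, adjusted p = 0.641). In R26Y hybrids over pooled unfused cells, in GFAP-Cre hybrids over pooled unfused cells, in GFAP-Cre over R26Y hybrids and in the difference of differences, each of these 4 lists also held 0 called genes.

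Markers of other cells are given beside these values, as their part in them was not tested. Of 8 neutrophil markers, 4 and 1 were well above background on the FoxA2-Cre hybrid arrays, against 7 and 6 on the FoxA2-Cre unfused arrays, and the log2 of their summed scaled signal was 0.45 and 0.02 in hybrids, against 5.50 and 4.87 in unfused cells. Of these, 2 fell in FoxA2-Cre hybrids, Mpo and S100a9 (adjusted p = 0.026 and 0.047, limma), though no gene was called when the fit held only the 4 arrays of this slide. Of 8 microglia markers, 7 and 3 were well above background on the FoxA2-Cre hybrid arrays, against 6 and 5 on the FoxA2-Cre unfused arrays. Their log2 sum, in which bright genes weigh most, was 6.21 and 7.30 in FoxA2-Cre hybrids, against 3.80 and 4.12 in FoxA2-Cre unfused cells. Their mean scaled log2 level was -0.34 and -1.18 in hybrids, against -2.97 and -2.14 in unfused cells. Of the 8, 5 had a difference above 0 and 0 were called. Of 7 monocyte and macrophage markers, 6 and 5 were well above background in either group. Their log2 sums were 7.92 and 8.64 in hybrids, against 7.96 and 7.59 in unfused cells. Of 4 dopaminergic neuron markers, 2 and 1 were well above background in FoxA2-Cre hybrids, against 3 and 2 in FoxA2-Cre unfused cells (log2 sums -0.46 and -1.41, against -0.55 and -0.59). Of 8 astrocyte markers, 1 and 3 were well above background in FoxA2-Cre hybrids, against 4 and 3 in FoxA2-Cre unfused cells (log2 sums -1.34 and 0.23, against -1.53 and -0.18). Of the 6 tested, 5 had a difference above 0 and 0 were called, with a median of 0.74 beside 0.36 for all genes. Slc1a3, Gja1, S100b and Sox9 were at background on all 4 arrays and Gfap on both hybrid arrays. Of 6 haematopoietic markers, 2 and 1 were well above background in FoxA2-Cre hybrids, against 3 and 3 in FoxA2-Cre unfused cells. Of the 5 tested, 2 had a difference above 0 and 0 were called. Runx1 and Gata2 were at background on all 4 arrays, and Kit and Cd34 on both hybrid arrays.

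By values centred on the mean of each slide, genes most like Foxa2 over the 10 arrays, out of 20060 genes compared, included 2610301B20Rik (Pearson's r = 0.95), Kctd15 (0.93), 1700109H08Rik (0.92) and Olfr94 (0.92). This is a description over 10 arrays that share 2 slides and differ in brightness.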

How the data were processed

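The authors deposited a table of spots per array, written by Agilent Feature Extraction (version 10.7.3.1). Per the file headers, it holds the processed signal, a background-corrected intensity, and other marks for each spot: well above background, and non-uniform. A matrix of log2 values was deposited too, and its tool is not given in the sources used here. On each array it follows the rank of mean signal minus background, with a median of 7.39 on 6 arrays and 6.26 on the FoxA2-Cre arrays, so its scale between slides and its centring are unknown.

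From the processed signals, log2 values were taken minus each array's 75th percentile over the 9510 spots well above background on all 10 arrays. Non-uniform spots were dropped and the spots of each probe averaged. Probes had to exceed background clearly (the scanner software's own flag) on 2 or more arrays, and the kept probe with the highest mean represents its gene. The 5 group means were fitted with limma 3.58.1 in R 4.3.3 over all 10 arrays (5 residual degrees of freedom), two-sided, with Benjamini-Hochberg adjustment over 32209 genes and a threshold of 0.05. The fit was also run on simulated data with the same noise in every group. The groups here differ in noise and brightness, so no conclusion is drawn from that run. The number of arrays limits the precision, and 0 columns belonged to unmatched samples. Symbols were updated through RefSeq for 27428 of 55681 probes that matched.

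The members, lists, tests and alternatives were chosen with earlier results of these data known. By the rule for names, all members are reported, and from the other lists up to 4 genes of smallest p in the FoxA2-Cre comparison, together with Shh, Corin, Slc6a3, Slc18a2 and the undetected markers, which were added after their values were seen; some genes that the rule names are not reported here. Alternatives were background correction, scaling, the deposited matrix, filters, single probes, slide subsets, slide row, the replicate number as a block and each array left out.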

Additional observations from a re-analysis of the deposited data

How the results depend on the processing

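In each of the 5 comparisons the count of called members was 0 under every one of the 20 alternatives (19 for the difference of differences, which spans both slides and so has no fit within a slide). Of 594 member differences under alternatives, 0 passed the threshold (smallest adjusted p 0.0971), and 43 changed sign, 27 of them when an array was left out; 8 of the 30 differences never changed sign. The cause of these changes was not tested. Labels give replicate numbers to all groups. The correlation of same-numbered deviations from the group means, across genes, was between -0.05 and 0.07. With 2 arrays a group this cannot settle whether same-numbered samples are paired, and the main fit treats them as unpaired. With the replicate block the member counts stayed 0. The calls over all genes in the FoxA2-Cre comparison were then 45, against 171 in the main fit.

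Counting a gene as detected only where all its probes are well above background left 3 and 1 members on the FoxA2-Cre hybrid arrays, against 4 and 2 on the FoxA2-Cre unfused arrays. With normexp, Foxa2 turned to 0.33 in the FoxA2-Cre comparison and to 0.27 in the difference of differences, and Pitx3 to -0.020 in GFAP-Cre hybrids over pooled unfused cells. In that last comparison Pitx3 was also -0.0059 with the percentile over all probes, -0.027 with quantile normalization and -0.089 with the authors' matrix, and Nr4a2 was -0.036 with quantile normalization and -0.042 with the authors' matrix. With slide row in the model the same comparison gave 0.59 for Foxa2, -0.029 for Lmx1b, -1.101 for Nr4a2 and -0.20 for Otx2, and the difference of differences gave -0.12 for Pitx3. En2 in GFAP-Cre over R26Y hybrids was -0.35 with the percentile over all probes, -0.30 with quantile normalization and -0.21 with the authors' matrix.

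Leaving out each array in turn, the FoxA2-Cre comparison gave -2.91 to 0.36 for Foxa2, -0.0070 to 1.97 for Lmx1b and -4.08 to 0.47 for Otx2. R26Y hybrids over pooled unfused cells gave -0.49 to 0.50 for Foxa2, -0.027 to 0.20 for En2, -2.11 to 0.10 for Nr4a2, -0.093 to 0.65 for Pitx3 and -0.90 to 0.075 for Otx2. GFAP-Cre hybrids over pooled unfused cells gave -1.40 to 0.94 for Foxa2, -0.15 to 0.34 for En2, -1.14 to 1.21 for Nr4a2, -0.10 to 0.15 for Pitx3 and -0.013 to 0.14 for Otx2. GFAP-Cre over R26Y hybrids gave -1.41 to 0.93 for Foxa2, -0.24 to 0.26 for En2, -0.13 to 2.21 for Nr4a2, -0.63 to 0.12 for Pitx3 and -0.013 to 0.96 for Otx2. The difference of differences gave -2.80 to 0.48 for Foxa2 and -3.90 to 0.65 for Otx2.

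The calls over all genes depended more on the setting. The FoxA2-Cre comparison had 171 (17 higher, 154 lower), 115 with normexp, 170 with the authors' matrix (39 higher, 131 lower), 0 with the slide's own arrays or with slide row, 62 when a single pooled unfused array or a single GFAP-Cre hybrid array was left out, 269 and 271 without R26Y hybrid replicate 1 or 2, 335 (138 higher) and 437 (245 higher) without FoxA2-Cre hybrid replicate 1 or 2, and 351 and 560 without FoxA2-Cre unfused replicate 1 or 2. Without R26Y hybrid replicate 1, R26Y hybrids over pooled unfused cells gave 2281 calls and GFAP-Cre over R26Y hybrids 2150, against 0 with all arrays. The difference of differences had 31 calls, 3 with quantile normalization, 56 with the authors' matrix, 0 with slide row or the replicate block, and between 0 and 158 with an array left out. Leaving a group with 1 array assumes that it varies like the others. The slide-row term is estimated from the hybrids of the other slide alone, so it does not check row on the FoxA2-Cre slide. Dim arrays limit what can be read: the lowest scaled log2 signal well above background was -5.02 and -3.47 on the FoxA2-Cre hybrid arrays, against -6.45 and -4.90 on the FoxA2-Cre unfused arrays.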
